A study of Mus musculus with 23 samples.

Results

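The genes described here are 10 inhibitory receptors, ligands and regulators of T cells. They were picked by symbol for their known roles from the 26869 genes in the deposited table, with earlier results of these data known. Shares of these genes that were called are set beside those of all genes as a description, not a test. The receptors are Pdcd1 (PD-1), Ctla4, Lag3, Havcr2 (TIM-3), Tigit and Cd160. The others are the PD-1 ligands Cd274 (PD-L1) and Pdcd1lg2 (PD-L2), the nuclear factor Tox and the ectonucleotidase Entpd1 (CD39). All 10 were matched by Ensembl identifier and passed the filter on low counts in every comparison. Levels are given as normalized counts, which are estimated read counts divided by a library size factor, and as ratios to Cd3e, a subunit of the T cell receptor complex.

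RNA was sequenced from 23 bulk tumors of MC38, a mouse colon carcinoma cell line, each grown under the skin of a female mouse aged 8 to 12 weeks that had been injected with the cells. The hosts were F1 offspring of C57BL/6J crossed with 1 of 6 Collaborative Cross strains, a panel of recombinant inbred mice. F1 hosts of CC001/UncJ, CC002/UncJ and CC075/UncJ (CC001F1, CC002F1 and CC075F1) are responder lines (R) in the study's text, and those of CC036/UncJ, CC079/TauUncJ and CC080/TauUncJ (CC036F1, CC079F1 and CC080F1) are non-responder lines (NR). At a tumor size of 75 to 110 mm3 each mouse was given a single 200 µg dose, either of aPD1 (clone 29F.1A12, which binds PD-1) or of an isotype control antibody (clone 2A3), and tumors were taken 48 h later. There were 2 tumors for each line and antibody and 1 for aPD1 in CC080F1, so that 12 R and 11 NR tumors were compared. Mice of an F1 cross share their genotype, and each class rests on 3 such genotypes. The sample labels give the line, and its class was taken from the text of the study, and tumors of a line entered the tests as independent samples, so p-values between classes do not carry the spread between lines.

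PD-1 is placed on T cells when their antigen receptor is engaged, and binding of PD-L1 or PD-L2 damps signalling from that receptor. T cells that meet antigen for a long time, as in tumors, hold several such receptors together and express Tox, a state called exhaustion. Interferon-gamma, which activated T cells release, is a known inducer of PD-L1 on tumor cells and macrophages, so that these genes are read in many cell types of a bulk tumor.

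Cd274 (chr19:29367455-29388095, GRCm38, plus strand) and Pdcd1lg2 (chr19:29410919-29471161, plus strand) lie next to each other, with starts 43.5 kb apart. Cd274 shares 511 of 3622 exon bases with AC119228.1 and Tox 260 of 7609 with Gm11802, both annotated on the opposite strand and not among the genes of the table. Pdcd1 lies on chromosome 1 (94038305 to 94052553, minus strand). The 250 bases before the RefSeq start are shown for Pdcd1, whose difference between host classes was the largest of the 10, and for Pdcd1lg2, the member with the smallest p between lines of a class, with motif matches in capitals. Both windows are written 5′ to 3′ on the gene's strand from RefSeq on GRCm38.p6, at chr1:94052554-94052803 (minus strand) and chr19:29410669-29410918 (plus strand), and neither overlapped an annotated exon.
Pdcd1: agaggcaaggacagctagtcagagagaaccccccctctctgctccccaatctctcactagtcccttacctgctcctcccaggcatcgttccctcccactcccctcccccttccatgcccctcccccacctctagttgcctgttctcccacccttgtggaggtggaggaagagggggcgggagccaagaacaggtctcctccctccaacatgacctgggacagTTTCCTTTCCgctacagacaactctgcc
Pdcd1lg2: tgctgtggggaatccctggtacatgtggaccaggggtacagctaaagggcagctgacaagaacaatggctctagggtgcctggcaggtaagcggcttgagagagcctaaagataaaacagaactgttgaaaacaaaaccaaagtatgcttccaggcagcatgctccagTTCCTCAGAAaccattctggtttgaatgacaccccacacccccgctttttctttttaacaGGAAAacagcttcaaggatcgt
The motifs searched on both strands were TTC and GAA with 3 bases between (the interferon-gamma activated site, GAS), the same with 4 bases between, GAAA repeated with 2 bases between (the core of an interferon-stimulated response element), TGANTCA (AP-1), GGGA and TTTCC with 1 base between (a kB site) and GGAAA (the NFAT core, read as TTTCC on the other strand, which a kB site can also hold). In the Pdcd1 window only the NFAT core matched, at 2 places, and such a core stood in 55.6% of 32851 promoter windows of the same length. The Pdcd1lg2 window held 1 NFAT core and 1 match to TTC and GAA with 4 bases between, TTCCTCAGAA, 82 to 73 bases before the start, a form found in 5.85% of windows. The window of Cd274 held 1 NFAT core and no match to either interferon-related motif (the GAS motif was in 7.02% and the response element core in 2.98% of windows), which says only that these letters were not in that stretch.

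Libraries held 14494014 to 71868253 counts and fell into 17 deep libraries of at least 37242363 counts (10 R, 7 NR) and 6 shallow ones of at most 18354585 (2 R, 4 NR). T cell markers moved with class, since all 8 in the list were called higher in R tumors over all tumors, against 7.66% of all genes. Within isotype tumors 2 of them were called and within aPD1 tumors 3. Their summed normalized counts were 657 to 2903 in R and 238 to 1380 in NR tumors. Of 6 macrophage markers 5 were called higher in R tumors over all tumors, 0 within isotype and 5 within aPD1 tumors. Their summed normalized counts were 43210 to 78040 in R and 27140 to 49960 in NR tumors. Glycam1, a gene of lymph node vessels, had counts in 3 tumors (CC002F1 isotype replicate 1, CC079F1 aPD1 replicate 1 and CC080F1 aPD1 replicate 1) and none in the other 20, and values without these tumors (a choice made after seeing the data) are given where a call between classes, antibodies or lines changed. In whole tumors fewer cells of a type and less RNA per cell cannot be told apart.

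The members spanned a wide range of abundance. Per kilobase of annotated exon, the median normalized count over 23 tumors was 703 for Cd274, 349 for Havcr2 and 288 for Entpd1, far above the other members. Tigit (69.8 per kb), Pdcd1 (62.7), Lag3 (57.4) and Ctla4 (44.6) followed, close to Cd3e (34.1). Their ranges over tumors overlapped throughout, from 2.05 to 336 per kb for Pdcd1 and from 16.2 to 233 per kb for Lag3, so the order among these 4 is not separated by the spread between tumors. Pdcd1lg2 (20.4 per kb), Cd160 (14.5) and Tox (4.05) were lowest, and Tox, with at most 15.9 per kb, is a transcript measured from few reads.

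**Figure D1:**
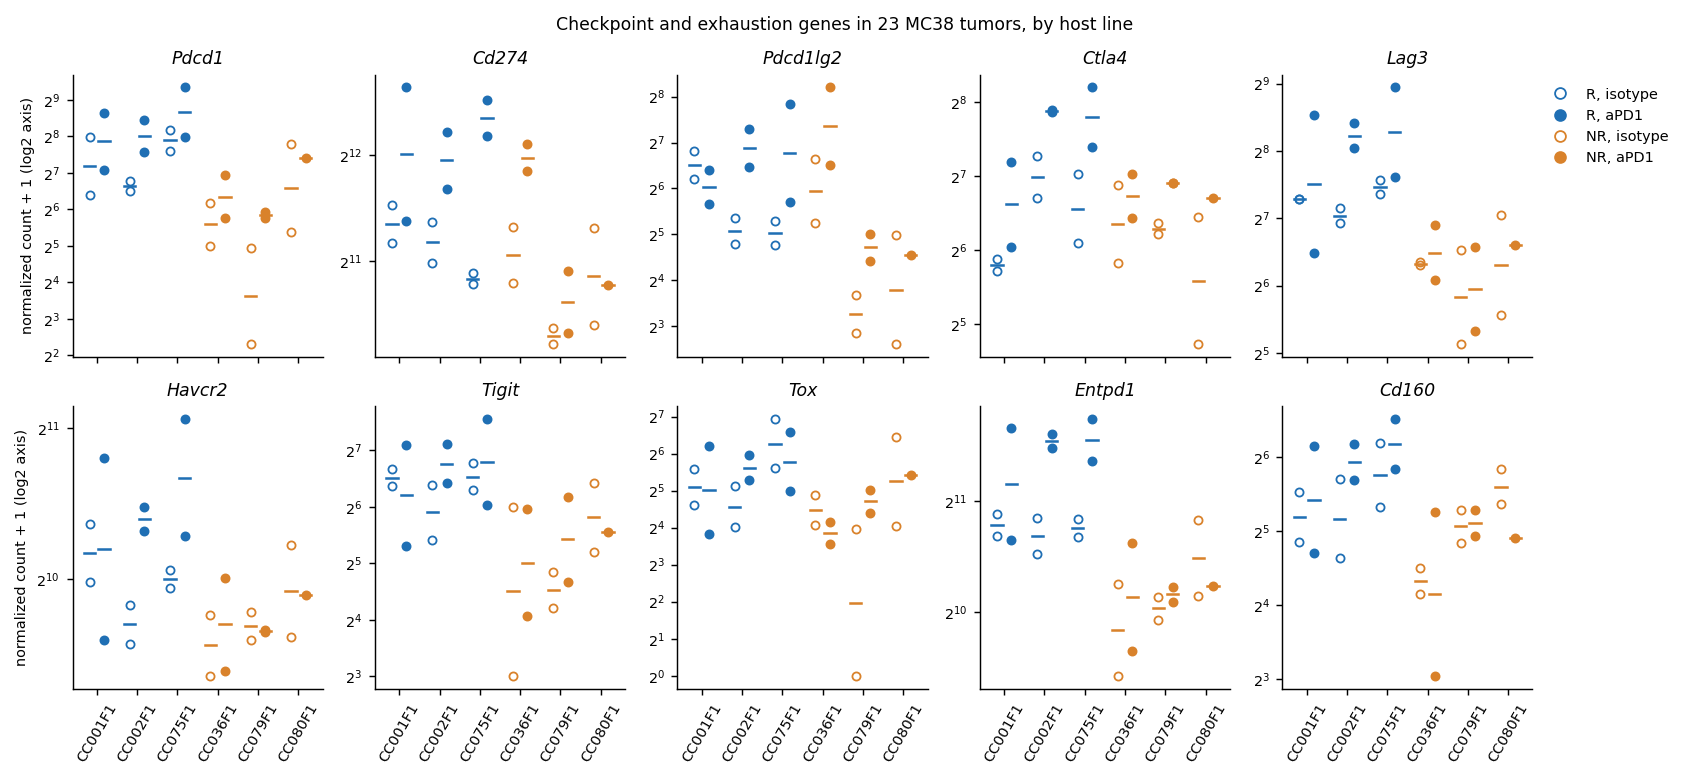
Normalized count + 1 of each gene on a log2 axis in every tumor, by host line (x axis), with open points for isotype, filled points for aPD1, blue for R lines and orange for NR lines; short lines are means of the log2 values. Pdcd1, Lag3, Tigit and Entpd1 lie higher in the 3 R lines than in the 3 NR lines on average, whereas Pdcd1lg2 is high in CC036F1, an NR line, and low in CC079F1 and CC080F1.

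The first comparison asked whether the genes differed between hosts that respond and hosts that do not. With all 23 tumors and a term for antibody, 6 of 10 members were higher in R tumors and none was lower, against 7.66% of all 17643 genes with an adjusted p that were called higher, 6.78% called lower and 14.4% called in either direction. The 6 were the receptors Pdcd1, Lag3, Tigit, Havcr2 and Cd160 and the ectonucleotidase Entpd1. All 10 estimates were above 0, with a median log2 difference of 0.82 against -0.00 over all genes, and Cd3e itself was higher by 1.47 ± 0.40 (SE, adjusted p = 0.0044 by the Wald test of DESeq2, as for all adjusted p below unless another tool is named).

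Pdcd1, the target of the antibody given, had normalized counts of 83.7, 223 and 648 (lowest, median and highest) in the 12 R tumors and of 3.97, 53.8 and 222 in the 11 NR tumors. The classes overlapped, although 6 R tumors lay above every NR tumor and 8 NR tumors below every R tumor. The difference was 1.58 ± 0.42 on the log2 scale (SE), a 2.99-fold higher level in R tumors with adjusted p = 0.00363. It missed the threshold when CC075F1 was left out (1.27, adjusted p = 0.0751) and when counts were summed per line (1.42, adjusted p = 0.182).

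Lag3, an inhibitory receptor that binds MHC class II, ranged from 88.2 to 491 with a median of 176 in R tumors and from 34.1 to 131 with a median of 80.4 in NR tumors. Of the 12 R tumors 10 lay above the highest NR tumor. The fold was 2.62 (log2 1.39 ± 0.24, adjusted p = 2.31e-06), and it passed in all 15 alternative settings and in all 23 runs that left out 1 tumor.

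Entpd1, which starts the breakdown of extracellular ATP towards adenosine, ran from 1467 to 3428 with a median of 1866 in R tumors and from 684 to 1820 with a median of 1127 in NR tumors. Only a part of the R tumors reached down into the NR range, with 8 of 12 above every NR tumor and 9 of 11 NR tumors below every R tumor. Its fold of 1.86 (log2 0.90 ± 0.15) had the smallest adjusted p of the 10 genes, 2.38e-07, and passed in the same 15 settings and 23 runs.

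Tigit, a receptor for the poliovirus receptor family, had 38.9 to 187 (median 83.8) in R and 7.07 to 85.0 (median 35.9) in NR tumors. It was 2.28-fold higher in R tumors (log2 1.19 ± 0.32, adjusted p = 0.00363), also in all 15 settings. Havcr2, which is found on exhausted T cells and on macrophages and dendritic cells, differed less, with medians of 1155 and 808 and a log2 difference of 0.48 ± 0.14 (adjusted p = 0.00704). Its call was lost in deep libraries alone (0.44, adjusted p = 0.101), without CC036F1 (0.42, adjusted p = 0.0665) or CC079F1 (0.43, adjusted p = 0.0720), and in limma with a random effect of line (0.44, adjusted p = 0.0851).

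Cd160, a receptor of cytotoxic T cells and NK cells, sat at the threshold. Its normalized counts were 23.8 to 90.7 in R and 7.26 to 56.3 in NR tumors, a log2 difference of 0.75 ± 0.28 with adjusted p = 0.0471. Without the 3 tumors that had Glycam1 counts the adjusted p was 0.161, and 5 of 15 settings kept the call. Cd160 shares 68 of 2642 exon bases with Pdzk1 on the opposite strand, and whether counting used strand is not given in the sources used here.

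The remaining 4 members did not pass. Cd274 had a log2 difference of 0.57 ± 0.21 (adjusted p = 0.0552), Ctla4 of 0.56 ± 0.23 (adjusted p = 0.0839), Tox of 0.94 ± 0.42 (adjusted p = 0.119) and Pdcd1lg2 of 0.49 ± 0.50 (adjusted p = 0.594). For Tox the tumors ran from 13.2 to 121 in R and from 0 to 87.1 in NR lines, so most of the NR range lay within that of R tumors. Ctla4, which competes with Cd28 for its ligands, was above every NR tumor in 6 of 12 R tumors, yet the lowest R tumor (51.6) lay within the NR range of 25.6 to 130. Leaving out the line CC036F1 moved Pdcd1lg2 to 1.99 (adjusted p = 4.0e-05) and Cd274 to 0.92 (adjusted p = 0.00156). Leaving out CC079F1 moved Pdcd1lg2 to -0.01 (adjusted p = 0.992), and leaving out CC001F1 moved Ctla4 to 0.85 (adjusted p = 0.000947) and CC080F1 moved Tox to 1.56 (adjusted p = 0.00299).

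Split by antibody, the isotype tumors gave 2 calls and the aPD1 tumors 5. In isotype tumors Lag3 (log2 0.98 ± 0.27, adjusted p = 0.0106) and Entpd1 (log2 0.57 ± 0.16, adjusted p = 0.018) were higher in R tumors, against 2.29% of 14995 genes called higher and 5.53% called in either direction. Lag3 stood at 121 to 189 in the 6 R and at 34.1 to 131 in the 6 NR isotype tumors, and 5 of the 6 R tumors exceeded every NR tumor. EdgeR called neither gene (adjusted p = 0.111 for Lag3 and 0.123 for Entpd1), and without the Glycam1 tumors Entpd1 missed the threshold (0.55, adjusted p = 0.0565). Of 15 settings 6 kept the call of Lag3 and 5 that of Entpd1. Pdcd1 differed by 1.34 ± 0.71 there (adjusted p = 0.271), with 83.7 to 290 in R and 3.97 to 222 in NR tumors. The high NR value was replicate 1 of CC080F1, and without that line the Pdcd1 difference was 2.33 (adjusted p = 0.00594).

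In aPD1 tumors Pdcd1, Lag3, Tigit, Havcr2 and Entpd1 were higher in R tumors, against 5.94% of 17156 genes called higher and 7.93% called in either direction. In the same tumors all 3 B cell markers were lower (summed normalized counts of 15.4 to 156 in R and 68.6 to 1094 in NR tumors) and both skeletal muscle markers higher (8.18 to 7105 and 5.08 to 181), and their part in these differences was not tested. Pdcd1 had 135, 299 and 648 (lowest, median and highest) in the 6 R tumors. In the 5 NR tumors it had 53.3 and 121 in CC036F1, 53.8 and 59.3 in CC079F1 and 168 in CC080F1. Only the lowest R tumor fell inside the NR range, and the log2 difference was 1.84 ± 0.47 (3.58-fold, adjusted p = 0.0030; 1.52 without CC079F1, adjusted p = 0.0761).

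Entpd1 was the member whose classes did not overlap under aPD1, 1 of 10, where R tumors lay above NR tumors without overlap for 3.04% of the 14099 genes whose normalized counts averaged 30 or more. Its R tumors had 1607 to 3428 with a median of 2992. The NR tumors had 798 and 1578 in CC036F1, 1088 and 1196 in CC079F1 and 1200 in CC080F1, and the log2 difference was 1.26 ± 0.19 (2.40-fold, adjusted p = 8.89e-09). Lag3 differed by 1.81 ± 0.36 (3.51-fold, adjusted p = 4.49e-05), with 88.2 to 491 in R tumors and 39.0 to 118 in NR tumors. Havcr2 (0.75 ± 0.20, adjusted p = 0.00577) and Tigit (1.33 ± 0.43, adjusted p = 0.0318) were called by DESeq2 but not by edgeR (adjusted p = 0.0735 and 0.159). The call of Tigit held in 6 of 15 settings and in 5 of 11 runs that left out 1 tumor. It was lost without the Glycam1 tumors (1.16, adjusted p = 0.163), where Tox was called instead (1.74, adjusted p = 0.0323), and without any one of CC002F1, CC075F1, CC036F1, CC079F1 and CC080F1 (adjusted p = 0.111, 0.134, 0.109, 0.0657 and 0.0518). In limma with a random effect of line 1 member was called, Entpd1.

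**Figure D2:**
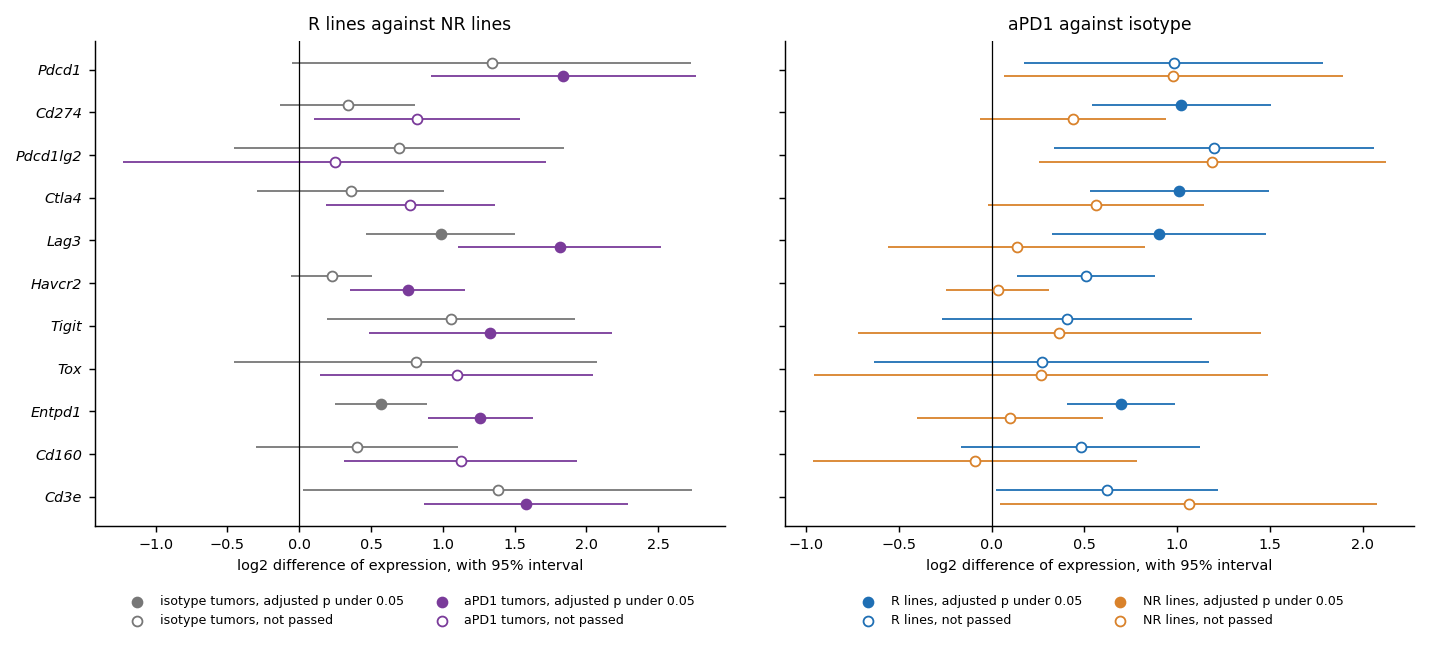
Log2 differences of each gene and of Cd3e (x axis) with 95% intervals, between R and NR lines on the left (gray for isotype tumors, purple for aPD1 tumors) and between aPD1 and isotype on the right (blue for R lines, orange for NR lines); filled points passed an adjusted p of 0.05 in DESeq2. All class estimates lie above 0, Entpd1 and Lag3 are filled for both antibodies, and no gene is filled for NR lines on the right.

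The log2 values were then averaged within each host line. Since no line is shared between classes, these line means are a description and cannot separate class from host line. For 6 of 10 members (Pdcd1, Cd274, Lag3, Havcr2, Tigit and Entpd1) the lowest R line mean was above the highest NR line mean, against 14.8% of the 12055 genes whose mean normalized count reached 100. Tigit, Pdcd1lg2, Cd160 and Tox had lower means than that, and over the 14099 genes with a mean of at least 30, which all 10 members reached, the share was 14.1%. For Entpd1 the R line means were 10.97 to 11.15 and the NR line means 9.98 to 10.40 in log2 units. Those of Cd274 nearly met, at 11.56 in CC002F1 against 11.52 in CC036F1. The line means of Pdcd1lg2, Ctla4, Tox and Cd160 overlapped between classes.

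Lines within a class differed for Pdcd1lg2 (adjusted p = 0.000499, likelihood ratio test) and Pdcd1 (adjusted p = 0.0333), 2 of 10 members against 6.29% of 19192 genes. Pdcd1lg2 had normalized counts of 36.9 to 294 in the 4 tumors of CC036F1, of 6.20 to 31.4 in the 4 of CC079F1 and of 5.12 to 30.5 in the 3 of CC080F1. CC036F1 tumors thus did not overlap those of the other NR lines. In R lines the 4 tumors each ran over 49.3 to 112 in CC001F1, 26.7 to 157 in CC002F1 and 26.4 to 228 in CC075F1. The antisense gene A930007I19Rik overlaps the span of Pdcd1lg2, but their annotated exons share no base. For Pdcd1 the medians were 41.9 in CC079F1, 62.5 in CC036F1 and 168 in CC080F1, and edgeR did not call it (adjusted p = 0.0811). Its call was also lost without the Glycam1 tumors (adjusted p = 0.165) and held in 12 of 23 runs that left out 1 tumor.

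The second comparison asked which members moved in the 48 h after aPD1. Among R lines, fitted with a term for each line, 4 members rose under DESeq2, against 4.85% of 15701 genes called higher, 0.408% called lower and 5.26% called in either direction. These were Cd274, Ctla4, Lag3 and Entpd1, and none fell. EdgeR called 0 members and 0 genes there, while 7 members had an unadjusted p under 0.05 in both tools. The edgeR adjusted p was 0.0634 for Cd274, 0.0747 for Ctla4, 0.0645 for Entpd1 and 0.198 for Lag3. In the same fit Cd3e differed by 0.62 ± 0.31 (adjusted p = 0.286), none of the 8 T cell markers passed, and 4 of the 6 macrophage markers rose (summed normalized counts of 43210 to 51570 in isotype and 48570 to 78040 in aPD1 tumors).

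Cd274 had 1763, 2158 and 2951 (lowest, median and highest) in the 6 isotype and 2659, 4704 and 6382 in the 6 aPD1 tumors of R lines. Of the aPD1 tumors 5 exceeded every isotype tumor. The rise was 2.03-fold (log2 1.02 ± 0.24, adjusted p = 0.00306), with per-line changes of 0.66 (CC001F1), 0.78 (CC002F1) and 1.52 (the line CC075F1). When CC075F1 was left out it was 0.78 (adjusted p = 0.163).

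Ctla4 rose 2.02-fold in R lines (log2 1.01 ± 0.24, adjusted p = 0.00342), from 51.6 to 155 under isotype to 65.3 to 294 under aPD1. Its rises were 0.82, 0.89 and 1.23 in CC001F1, CC002F1 and CC075F1, and without CC002F1 the adjusted p was 0.0701. Entpd1 rose 1.62-fold (log2 0.70 ± 0.15, adjusted p = 0.000733), with isotype tumors at 1467 to 1893 and 5 of 6 aPD1 tumors above all of them, and without CC002F1 it was 0.62 (adjusted p = 0.063). Lag3 rose 1.87-fold (log2 0.90 ± 0.29, adjusted p = 0.0428), and the call held in 4 of 10 settings and in 2 of 12 runs that left out 1 tumor. It was lost without the Glycam1 tumors (0.89, adjusted p = 0.0957), with the replicate block (0.76, adjusted p = 0.0928), without CC002F1 (0.76, adjusted p = 0.406) and without CC075F1 (0.87, adjusted p = 0.152).

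Pdcd1lg2 (1.199 ± 0.44, adjusted p = 0.0919), Pdcd1 (0.98 ± 0.41, adjusted p = 0.174) and Havcr2 (0.51 ± 0.19, adjusted p = 0.0979) had positive estimates that did not pass. In deep libraries alone all 3 were called, at 1.53, 1.00 and 0.69 (adjusted p = 0.0147, 0.0408 and 0.0176). Pdcd1lg2 changed by -0.49 in CC001F1 and by 1.80 and 1.73 in CC002F1 and CC075F1, so R lines did not share its direction. Tigit (0.40 ± 0.34), Tox (0.27 ± 0.46) and Cd160 (0.48 ± 0.33) had adjusted p of 0.630, 0.842 and 0.514.

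In NR lines no member passed, against 0.0448% of 24552 genes (11 genes). DESeq2 gave 2 members and edgeR 3 an unadjusted p under 0.05. Pdcd1 had 3.97 to 222 in the 6 isotype tumors and 53.3 to 168 in the 5 aPD1 tumors, a log2 difference of 0.98 ± 0.47 (adjusted p = 0.872), beside 0.98 ± 0.41 in R lines. It was higher with aPD1 in all 3 NR lines, by 0.76, 2.21 and 0.80, but within the spread between tumors. Pdcd1lg2 had the largest estimate there, 1.19 ± 0.48 (adjusted p = 0.711), with changes of 1.41, 1.45 and 0.76 in CC036F1, CC079F1 and CC080F1. Ctla4 differed by 0.56 ± 0.30 (adjusted p = 0.949), with changes of 0.38, 0.62 and 1.11 in the same lines. Tigit (0.365 ± 0.555) and Tox (0.27 ± 0.62) did not pass either. The estimates of Lag3 (0.13 ± 0.36), Havcr2 (0.03 ± 0.14), Entpd1 (0.10 ± 0.26) and Cd160 (-0.09 ± 0.45) were near 0, with 95% intervals of -0.56 to 0.83, -0.25 to 0.31, -0.40 to 0.60 and -0.96 to 0.79. For Cd274 the NR lines went apart, with a change of 0.92 in CC036F1, 0.32 in CC079F1 and -0.09 in CC080F1, and without CC080F1 it was called (0.63, adjusted p = 0.00743).

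The difference of the aPD1 effect between R and NR lines was tested as an interaction, and no member passed, against 0.0342% of 26342 genes (9 genes). In DESeq2 and in edgeR 1 member had an unadjusted p under 0.05 (in DESeq2 Entpd1), and edgeR called 0 genes. The largest estimates were for Lag3 (0.78 ± 0.48), Entpd1 (0.61 ± 0.30), Cd274 (0.59 ± 0.35), Cd160 (0.58 ± 0.54), Havcr2 (0.49 ± 0.26) and Ctla4 (0.46 ± 0.39), with adjusted p of 0.741 to 1.0. For Pdcd1 (0.00 ± 0.70), Pdcd1lg2 (0.01 ± 0.70), Tigit (0.05 ± 0.67) and Tox (0.02 ± 0.79) the estimates were near 0 with wide intervals, -1.37 to 1.37 for Pdcd1, so that a difference within that interval was not detectable here. The per-line changes of Entpd1 (0.37 to 0.86 in R and -0.25 to 0.30 in NR lines) and of Cd160 (0.24 to 0.76 and -0.70 to 0.04) did not overlap between classes, 2 of 10 members, and R lines lay above NR lines in this way for 7.25% of the 14099 genes with a mean of at least 30.

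The third question was how far each member moved with T cell content, read as Cd3e. Across the 23 tumors Pdcd1 followed Cd3e most closely (Pearson r = 0.956, Spearman rho = 0.945 on log2 values, permutation p = 1e-05 for both, the smallest that 100000 permutations can give, and 5e-05 and 1.7e-05 adjusted over the 10 genes). The relation was also seen within R tumors (r = 0.867, n = 12) and within NR tumors (r = 0.949, n = 11), and r was 0.923 without the 2 tumors farthest from the median Cd3e, both CC079F1 isotype tumors. Tox came next (r = 0.898, rho = 0.878, permutation p = 1e-05), with r = 0.841 within R and 0.927 within NR tumors.

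Entpd1 (r = 0.730), Lag3 (0.719), Tigit (0.714), Havcr2 (0.696), Cd274 (0.578), Cd160 (0.519), Pdcd1lg2 (0.502) and Ctla4 (0.446) had lower values of r, with permutation p of 6e-05 to 0.034 (adjusted over the 10 genes, 0.0002 to 0.034). Their Spearman rho was 0.872 for Lag3, 0.868 for Tigit, 0.863 for Entpd1, 0.808 for Havcr2, 0.699 for Cd160, 0.537 for Cd274, 0.456 for Ctla4 and 0.382 for Pdcd1lg2, with permutation p of 1e-05 to 0.070 (adjusted, 1.7e-05 to 0.070). Within NR tumors none of these members passed (permutation p of 0.33 or more, adjusted over the 10 genes). There r was 0.30 for Lag3 (unadjusted permutation p = 0.37), 0.391 for Tigit (0.24) and 0.061 for Cd160 (0.85). It was 0.519 for Havcr2, 0.403 for Entpd1, 0.385 for Cd274, 0.32 for Ctla4 and 0.311 for Pdcd1lg2. Within R tumors Lag3, Tigit and Cd160 had r of 0.845, 0.905 and 0.880, Havcr2 0.802 and Entpd1 0.708. Cd274 (0.493), Pdcd1lg2 (0.519) and Ctla4 (0.392) did not pass there. The difference between classes was not tested. Pdcd1lg2 fell to r = 0.271 without the 2 CC079F1 tumors (permutation p = 0.24), so its relation rests on them. Tumors of a line share a genotype and are not independent draws.

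**Figure D3:**
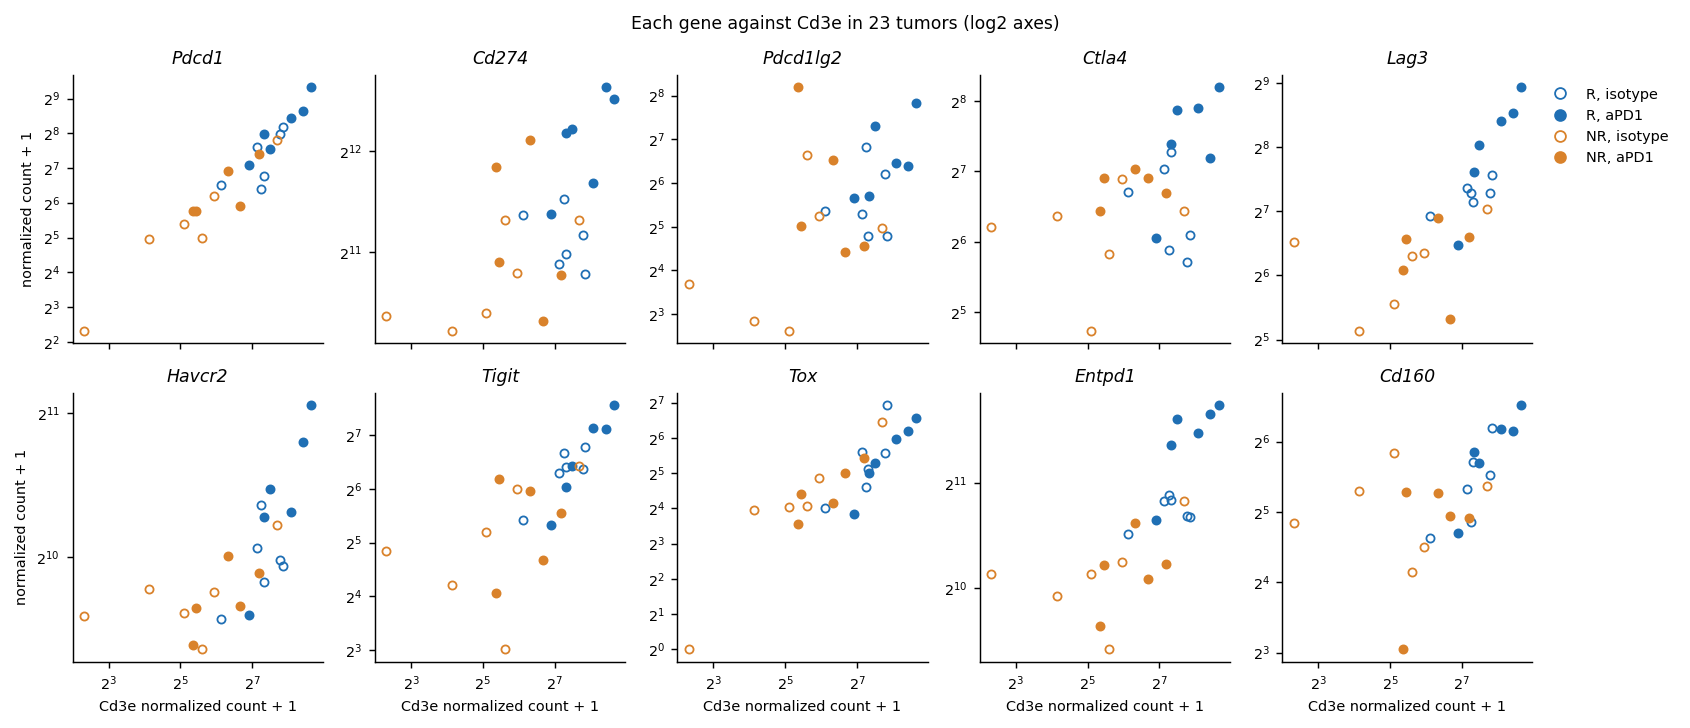
Normalized count + 1 of each gene (y axis) against that of Cd3e (x axis) in 23 tumors on log2 axes, with open points for isotype, filled for aPD1, blue for R and orange for NR tumors. Pdcd1 (r = 0.956) and Tox (r = 0.898) form narrow bands that run through both classes, whereas Pdcd1lg2 and Ctla4 are scattered.

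The genes most like each member over the 23 tumors, among those 12055 genes, are given as a description of these libraries. Pdcd1 was nearest to Cd3e (r = 0.956), Cd8a (0.915) and Camk4 (0.893), and Tox to Cd3e (0.898), Pdcd1 (0.894) and Cd3d (0.823). Lag3 was nearest to AW112010 (0.916), Klrk1 (0.913) and Cxcr6 (0.912), and Tigit to Il18r1 (0.892), Sh2d2a (0.886) and Mapk14 (0.883). Ctla4 was nearest to Ttc39b (0.849), the costimulatory receptor Icos (0.817) and Foxp1 (0.785).

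Only Pdcd1 and Tox had genes of the T cell receptor complex among these nearest genes. Cd274 was nearest to Nlrc5 (0.955), an activator of MHC class I genes, Pim1 (0.953) and Irgm1 (0.952), an interferon-induced GTPase. Havcr2 was nearest to Abca1 (0.930), the Fc receptor gene Fcgr1 (0.926) and Sh3bp2 (0.924), and Entpd1 to Ctsh (0.963), Il10ra (0.960) and AW112010 (0.955). Pdcd1lg2 was nearest to Slc7a2 (0.885), Gpr35 (0.880) and Lgals3 (0.878), and Cd160 to Man2a1 (0.881), Ms4a7 (0.868) and 5430427O19Rik (0.859).

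Scaling each tumor by its Cd3e count gave the same genes per unit of Cd3e. There were 1.21 Pdcd1 counts for each Cd3e count in the median R tumor and 1.18 in the median NR tumor, with ranges of 0.549 to 1.62 and 0.588 to 1.81 that overlapped almost fully. The Pdcd1 difference between R and NR tumors was 0.02 ± 0.28 on this scale (95% interval -0.54 to 0.57, adjusted p = 0.955), -0.13 ± 0.58 in isotype tumors and 0.16 ± 0.36 in aPD1 tumors. Its antibody effect was 0.30 ± 0.32 in R and 0.01 ± 0.64 in NR lines. Tox was 0.214 per Cd3e count in the median R tumor and 0.333 in the median NR tumor, a log2 difference of -0.66 ± 0.34 that did not pass (adjusted p = 0.0716). With Cd8a in place of Cd3e, Tox was called lower in R tumors (-1.02 ± 0.35, adjusted p = 0.0045).

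The other 8 members were lower per Cd3e count in R tumors, but so were 73.7% of all 26032 genes, since the median of all genes shifted by -2.40 on this scale. Relative to that shift the members stood higher, from 0.41 for Havcr2 to 1.38 for Tigit, 1.74 for Tox and 2.42 for Pdcd1. Havcr2 had 6.11 counts per Cd3e count in the median R and 14.2 in the median NR tumor (log2 -1.99 ± 0.46, adjusted p = 2.88e-05), and Cd274 had 16.65 and 45.0 (log2 -1.77 ± 0.47, adjusted p = 0.00028). Ctla4 had 0.806 and 1.64 (log2 -1.84 ± 0.50, adjusted p = 0.000465). Pdcd1lg2, Entpd1 and Cd160 differed by -1.72, -1.55 and -1.66, Lag3 by -1.17 (adjusted p = 0.0259) and Tigit by -1.02 (adjusted p = 0.0305).

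These sizes leaned on replicate 2 of CC079F1 isotype, which had 2 Cd3e counts and 0 Tox counts (a count of 0 allows up to 3 counts, a normalized count of 5.95). Without it the shift of all genes was -1.77, Havcr2 differed by -1.34 and Cd274 by -1.18, and Lag3 (-0.24, adjusted p = 0.442) and Tigit (-0.50, adjusted p = 0.17) no longer passed, while Tox did (-0.68, adjusted p = 0.0322). In deep libraries Lag3 was -0.11 (adjusted p = 0.797) and Tigit 0.02 (adjusted p = 0.955). With Cd3d, Cd3e and Cd3g as reference they were -0.15 (adjusted p = 0.624) and -0.36 (adjusted p = 0.327). From counts summed over tumors, Lag3 stood at 1.09 per Cd3e count in R and 0.976 in NR tumors, and Tigit at 0.464 and 0.484. In isotype tumors 5 members were lower per Cd3e count (background 73.4% lower), where DESeq2 gave Lag3 (-2.15 ± 0.81) no p, so that 9 could be called, and in aPD1 tumors 4 (69.9% lower). With Ptprc, a gene of all leukocytes, in place of Cd3e, Pdcd1 (0.89, adjusted p = 0.00482) and Lag3 (0.54, adjusted p = 0.0206) were called higher in R tumors and Havcr2 lower over all tumors. With macrophage markers, a reference chosen after seeing the data, Pdcd1 (1.19, adjusted p = 0.00575), Lag3 (0.93, adjusted p = 0.000135), Tigit (0.80, adjusted p = 0.00961) and Entpd1 (0.50, adjusted p = 0.0001) were called higher and none lower. For aPD1 against isotype 0 members passed relative to Cd3e in R lines (0.00402% of genes) and 0 in NR lines (0% of genes), with 0 and 3 members at an unadjusted p under 0.05.

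**Figure D4:**
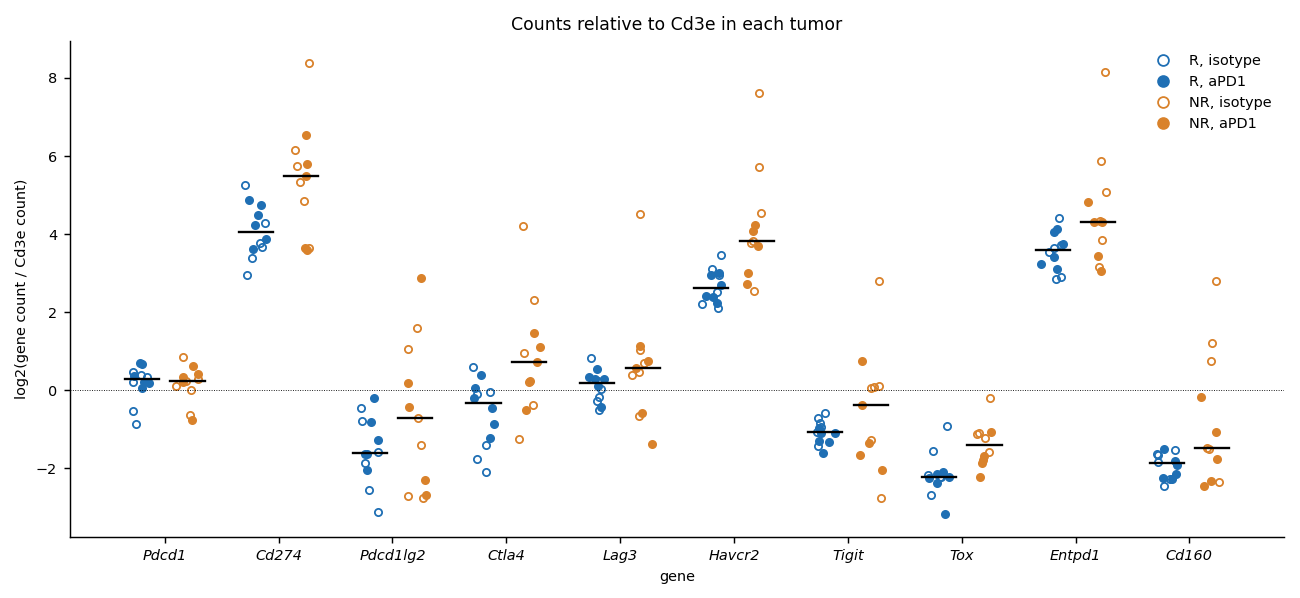
Log2 ratio of each gene's count to the Cd3e count (y axis) in every tumor, R in blue and NR in orange, open for isotype and filled for aPD1, with black lines at medians; the tumor with 0 Tox counts is left out for Tox. R and NR medians nearly coincide for Pdcd1, while Havcr2 and Cd274 lie lower in R tumors, where every gene is divided by a higher Cd3e count.

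The wider pathway was read from lists of other genes. Of 28 checkpoint ligands and partners, 13 were higher and 2 lower in R tumors over all tumors, with a median log2 difference of 0.36. Of all genes 7.66% were called higher and 6.78% lower. Sirpa, the receptor on myeloid cells for Cd47, was higher by 0.52 ± 0.09 (adjusted p = 2.39e-07), Vsir by 0.57 ± 0.10 (4.33e-06), Cd226, the activating rival of Tigit, by 1.69 ± 0.36 (0.000151), and Cd244a by 0.70 ± 0.16 (0.000433). The 2 that were lower, a share near that of all genes, were Rgmb, a ligand of PD-L2, and Nectin2, a ligand of the Tigit family. Under aPD1 alone 12 were higher (5.94% of all genes) and 0 lower. Under isotype 4 were higher (2.29% of all genes) and 1 lower (486 of 14995 genes). With aPD1 in R lines 7 rose (4.85% of all genes).

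Of 16 genes of PD-1 signalling and PD-L1 control, 5 were higher in R tumors (7.66% of all genes) and 0 lower (median log2 difference 0.09). Ifng, which encodes interferon-gamma, was higher by 1.89 ± 0.33 (adjusted p = 1.75e-06), with 29.5 to 289 in R and 8.47 to 51.2 in NR tumors. Ptpn6 was higher by 0.75 ± 0.14 (5.69e-06) and Irf1 by 0.31 ± 0.08 (0.00318), and Sla2 was also among those called. In R lines 6 of the 16 rose with aPD1 (4.85% of all genes), among them Ifng and Irf1, and Cd274 rose in the same tumors. These are calls of DESeq2 alone, since edgeR made none there (edgeR adjusted p = 0.0634 for Cd274). A link between Cd274 and these genes was not tested. In NR lines 0 of the 16 passed, where 0.0448% of all genes did.

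Among 16 transcription factors tied to exhaustion, 5 were higher and 1 (Bhlhe40) lower in R tumors, with a median of 0.22, beside 7.66% of all genes higher and 6.78% lower. Tbx21 was higher by 1.25 ± 0.24 (adjusted p = 1.26e-05), Nr4a3 by 1.04 ± 0.20 (2.7e-05), Nfatc2 by 0.56 ± 0.12 (0.000183) and Nfatc1 by 0.34 ± 0.08 (0.000461), the fifth being Irf4. Of 10 genes of progenitor exhausted and memory T cells 1 was higher, Slamf6 (0.53 ± 0.17, adjusted p = 0.0160), a share near the 7.66% of all genes. Of 11 surface and secreted genes of terminally exhausted T cells 4 were higher, against the same 7.66%, and 0 lower, namely Cxcr6 (1.47 ± 0.34, adjusted p = 0.000411), Cd244a, Gzmb (1.02 ± 0.28, adjusted p = 0.00479) and Cd38 (0.59 ± 0.19, adjusted p = 0.0166). None of these lists was tested as a set. Gzmb and Tbx21 are also used by NK cells, of whose 4 markers 2 were higher in R tumors (7.66% of all genes). The part of NK cells in these counts was not tested.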

How the data were processed

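Tumor RNA was prepared with a poly(A) mRNA kit and sequenced as paired-end reads. Per the methods and the labels, the authors aligned reads with Bowtie 1.2.3 to transcriptomes of the founder strains built on GRCm38 (mm10), and deposited the estimated counts per gene that gbrs gave from these alignments. Whether counting used strand is not given in the sources used here. Of the values 16.95% were not whole, and counts were rounded, which moved a library's total by at most 67 counts. Names were matched for 26681 of 26869 gene identifiers, and every sample column was used.

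Host line and antibody came from the labels and the host class from the study's text. Tests were Wald tests of DESeq2 1.42.0 in R 4.3.3 with default options on genes with at least 5 summed counts and Benjamini-Hochberg adjustment over all genes, called at 0.05. Classes were compared over all tumors (antibody as a term) and per antibody, antibodies within class (line as a term), their interaction, and lines within class (likelihood ratio test). A further set used size factors proportional to Cd3e counts. Alternatives were edgeR 4.0.16, limma 3.58.1, other size factors, filters and reference genes, deep libraries, and leaving out lines or tumors. Correlations used log2(normalized count + 1) and 100000 two-sided permutations. The mean normalized count of 30 used for shares of groups that do not overlap was set after the members' levels were seen. Steps were tested on simulated data, in which DESeq2 made more false calls than edgeR.

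All 10 members are named throughout. From each pathway list up to 4 called genes with the lowest adjusted p are named, plus the 3 genes most correlated with each member. One gene that this rule names is not reported here. Other list genes (Rgmb, Nectin2, Sla2, Irf4 and Bhlhe40) were named after their values were seen. The members and lists were chosen with earlier results of these data known. The 2 tumors of a group differed beyond counting noise in all 11 pairs (chi-square per degree of freedom 9.73 to 135.86). The labels do not say whether tumors came from separate rounds of injection, and p-values measure the spread between these tumors. Total counts of 14494014 to 71868253 per library set the precision for low genes.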

Additional observations from a re-analysis of the deposited data

Results flagged for a closer look

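In 5 of 40 sets of one gene in one class and antibody, a tumor lay farther from the others than Dixon's 95% limit. The limit assumes a normal spread and was applied to normalized counts without logs, and all 5 tumors were on the high side. The sets also share tumors, so this count cannot be set against a chance rate. Replicate 1 of CC080F1 isotype was high for Pdcd1 (221.7) and for Tox (87.14) among the NR isotype tumors, and its Cd3e normalized count of 205 was the highest of those tumors. Replicate 2 of CC036F1 was high for Pdcd1lg2 in both antibody groups of NR lines, with 99.0 under isotype and 293.5 under aPD1; these are different animals of 1 line. Replicate 1 of CC075F1 isotype was high for Tox among the R isotype tumors (121.0). No cause of these values was tested.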

How the results depend on the processing

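Members called by setting. In isotype tumors (2 called) the count was 0 with edgeR, with filterByExpr, in deep libraries, summed per line, in limma and without CC001F1 or CC079F1, 1 without the Glycam1 tumors, CC002F1, CC075F1 or CC036F1, and 4 without CC080F1. Without CC036F1 the 1 call was Pdcd1lg2 (1.85, adjusted p = 0.0453), and those of Lag3 (adjusted p = 0.0505) and Entpd1 (adjusted p = 0.0766) were lost. In aPD1 tumors (5) it was 3 with edgeR, with filterByExpr and without CC075F1, 2 without CC079F1 and 1 in limma, and without the Glycam1 tumors it was 5 with Tox in place of Tigit. Other settings added calls there. Without CC001F1 Ctla4 (1.08, adjusted p = 9.67e-06) and Cd160 (1.28, adjusted p = 0.0468) were called. Without CC036F1 Cd274 (1.48, adjusted p = 4.2e-05) and Pdcd1lg2 (2.175, adjusted p = 0.000645) were called and Tigit was not. Cd160 was also called with counts summed per line (1.19, adjusted p = 0.0253). For aPD1 in R lines (4) it was 0 with edgeR with either filter, 7 in deep libraries and without CC001F1, 1 without CC002F1 and 2 without CC075F1. In NR lines (0) it was 1 without CC080F1, and between lines (2) it was 1 with edgeR and without the Glycam1 tumors. Relative to Cd3e over all tumors (8, all lower in R tumors) it was 5 lower with Cd3d, Cd3e and Cd3g as reference, 3 with Ptprc (2 higher and 1 lower), 4 with macrophage markers (all higher) and 4 lower in deep libraries. In isotype tumors (5) these gave 0 with Ptprc, 0 with macrophage markers and 1 in deep libraries, in aPD1 tumors (4 lower) 1 lower with the Cd3 genes, 1 higher with Ptprc, 3 higher with macrophage markers and 0 in deep libraries, and for aPD1 in R lines (0) 3 higher with macrophage markers. Without the Glycam1 tumors 7 were lower per Cd3e count over all tumors, with no p for Lag3, and 6 in aPD1 tumors. The macrophage reference and the runs without Glycam1 tumors were chosen after seeing the data. The cause of these changes was not tested, and edgeR and leave-out runs differ in test or sample number.

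Leaving out 1 tumor gave 5 to 8 called over all tumors, 1 to 5 in isotype and 4 to 8 in aPD1 tumors, 3 to 7 in R lines, 0 to 1 in NR lines, 0 to 0 for the interaction and 1 to 3 between lines. Relative to Cd3e it gave 6 to 8, 4 to 6 and 1 to 4 for the class comparisons, 0 to 0 in R lines and 0 to 3 in NR lines, and 4 to 7 members had line means apart. The isotype count was 1 without CC001F1 isotype replicate 2, CC002F1 isotype replicate 1 or either CC079F1 isotype tumor and 5 without CC080F1 isotype replicate 1. Without CC001F1 aPD1 replicate 1 it was 8 in aPD1 tumors and 7 in R lines.

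Replicate numbers were not taken as pairs in the main fits. Same-number deviations correlated at 0.368, 0.062, -0.202, 0.202 and 0.115 in CC001F1, CC002F1, CC075F1, CC036F1 and CC079F1. With 2 tumors per group these values cannot tell whether tumors of the same number belong together. With the replicate block 7 members were called over all tumors, 2 in isotype, 5 in aPD1, 3 in R lines, 0 in NR lines and 0 for the interaction.

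Some estimates near 0 changed sign. For Pdcd1lg2 between classes these were -0.009 without CC079F1 over all tumors, -0.14 in deep isotype libraries, and in aPD1 tumors -0.348 without the Glycam1 tumors, -0.313 without CC079F1 and -0.002 without CC080F1. For aPD1 against isotype, Tox was -0.094 in R lines without CC002F1, and in NR lines -0.102 in deep libraries and -0.509 without CC079F1. In NR lines Cd160 was 0.217 without the Glycam1 tumors and 0.122 without CC080F1, Havcr2 was -0.028 with the replicate block and -0.054 without CC036F1, Entpd1 -0.049 without CC036F1 and Tigit -0.055 without CC079F1.

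For the interaction, deep libraries gave Tigit -0.005. Without the Glycam1 tumors Pdcd1 was -0.143, Pdcd1lg2 -0.571 and Tigit -0.339, with TMM size factors Pdcd1 -0.024, Pdcd1lg2 -0.012 and Tox -0.002, and with the replicate block Pdcd1lg2 -0.085, Tigit -0.069 and Tox -0.056. Without CC002F1 Pdcd1 was -0.217, Pdcd1lg2 -0.375, Tigit -0.168 and Tox -0.343, without CC075F1 Pdcd1lg2 -0.495, without CC036F1 Pdcd1 -0.144, Tigit -0.038 and Tox -0.609, and without CC080F1 Pdcd1 -0.203, Pdcd1lg2 -0.295, Tigit -0.217 and Tox -0.2.

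In place of Cd3e over all tumors, Cd8a gave Pdcd1 -0.243, Ptprc gave Lag3 0.544, Tigit 0.442, Tox 0.243 and Entpd1 0.135, and macrophage markers gave Cd274 0.1, Ctla4 0.131, Lag3 0.934, Havcr2 0.053, Tigit 0.799, Tox 0.541, Entpd1 0.503 and Cd160 0.358. Relative to Cd3e, Tigit was 0.024 in deep libraries and Pdcd1 -0.049 without the Glycam1 tumors. Pdcd1 in isotype tumors was 0.253 with the Cd3 genes, 0.999 with Ptprc, 1.2 with macrophage markers and 0.003 in deep libraries. In aPD1 tumors it was -0.011 with Cd8a and -0.087 without the Glycam1 tumors, and in NR lines -0.046 with Cd8a and -0.028 in deep libraries.

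Leaving out 1 tumor also turned some signs. The range was -0.102 to 1.39 for Pdcd1lg2 between classes in aPD1 tumors and -0.092 to 0.567 for Tox with aPD1 in R lines. In NR lines it was -0.087 to 0.109 for Havcr2, -0.103 to 0.225 for Entpd1, -0.046 to 0.358 for Lag3, -0.555 to 0.122 for Cd160 and -0.161 to 0.699 for Tox. For the interaction it was -0.373 to 0.301 for Pdcd1, -0.402 to 0.44 for Tox, -0.57 to 0.406 for Tigit and -0.501 to 0.437 for Pdcd1lg2. Relative to Cd3e, Pdcd1 ran over -0.073 to 0.11 in all, -0.268 to 0.05 in isotype and -0.022 to 0.278 in aPD1 tumors, and -0.205 to 0.29 for aPD1 in NR lines. Depth limits the members of few counts, with median normalized counts of 30.8 for Tox and 38.2 for Cd160.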
